A study of Mus musculus with 28 samples.

Results

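The loss of Hnf4a alone was examined in mTEClo, medullary thymic epithelial cells with low surface levels of the maturation markers, by comparing all 3 libraries of the Hnf4a-removed genotype with all 4 libraries of the control genotype. The libraries were chosen by their column names in the count table, and these 7 are part of 28 libraries from 8 groups of sorted mouse thymic cells. Hnf4a-removed mice were Foxn1cre +/-, Hnf4a fl/fl and Hnf4g +/-. Control mice were Foxn1cre +/-, Hnf4a fl/+ and Hnf4g +/-, so they were not wild type: they too carried Cre, 1 floxed Hnf4a allele and 1 inactive Hnf4g allele. For comparison, 3 Hnf4g-removed libraries (Foxn1cre +/-, Hnf4a fl/+, Hnf4g -/-) and 4 double-mutant libraries (Foxn1cre +/-, Hnf4a fl/fl, Hnf4g -/-) of the same subset were used. All mice were on the C57BL/6 strain, and the labels call the sorted cells post-Aire mTEClo. The Foxn1 driver recombines floxed DNA throughout the thymic epithelium, in cortical as well as medullary cells, whereas the Hnf4g allele is inactive in every cell of the mouse. No source used here gives the ages of the mice or the stretch of Hnf4a that lies between the loxP sites. The sorts followed depletion of CD45+ blood cells. The labels do not say that replicates came from separate mice, and the p-values below therefore cover only how much these libraries vary.

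Hnf4a and Hnf4g encode paralogous nuclear receptors that bind DNA at direct repeats of a short element and drive absorptive and metabolic genes in intestine and liver. In the thymus, medullary epithelial cells display genes of peripheral tissues to developing T cells, partly through Aire and partly through mimetic subsets that use the lineage factors of the tissue they resemble. Mimetic cells of the enterocyte and hepatocyte type are among them, and microfold, tuft, goblet, ciliated, neuroendocrine, keratinocyte and muscle types are others. The comparison asks which genes of mTEClo depend on Hnf4a when an Hnf4g allele is still intact.

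The 7 libraries held 6407618 to 7445874 counted reads each, with ranges that overlapped between the genotypes. Epithelial markers were present in all of them, with 6783 to 9011 reads of Epcam, 12531 to 14802 of Krt8 and 181 to 372 of the thymic epithelial regulator Foxn1. Cd74, the MHC class II invariant chain, had 17435 to 33441 reads, but it is not specific to epithelium. Aire itself was present, at 187 to 559 CPM (reads scaled to a common library total with TMM normalization). Cd3e of T cells had 1 to 8 reads and Hbb-bs of red cells 0 to 10, while Ptprc, the pan-leukocyte marker CD45, had 123 to 272. Other listed markers had more reads: Cd4 of thymocytes had 4 to 61, and the erythroid genes Alas2 and Slc4a1 had 49 to 201 and 7 to 74. Summed levels of lists cover only the members that passed the filter on low counts. For erythroid markers these were 2 of 9, Alas2 and Slc4a1, which summed to 14.6 to 40.0 CPM in control and 12.3 to 26.1 CPM in Hnf4a-removed libraries. The summed level of 16 of 22 myeloid and dendritic markers was 585 to 908 CPM in control and 713 to 1164 CPM in Hnf4a-removed libraries. That of 12 of 22 thymocyte markers was 77.8 to 104 and 79.9 to 106 CPM. The summed levels of the thymocyte, myeloid and dendritic, B cell, fibroblast, endothelial and erythroid marker lists overlapped between the genotypes. Of 10 tested endothelial genes, however, 2 were higher and 1 lower without overlap, against 3.39% and 3.49% of all genes. Cldn5, one of the higher ones, had 1, 13, 0 and 4 reads in control and 23, 31 and 41 in Hnf4a-removed libraries. The number of genes with a read was 28430 to 29306 in control and 27045 to 28266 in Hnf4a-removed libraries, without overlap (exact permutation p = 0.0286 two-sided, the smallest that 3 against 4 allow, and 0.471 after Benjamini-Hochberg adjustment over 33 library measures). Mitochondrial reads took 1.62% to 1.68% in control and 1.56% to 2.14% in Hnf4a-removed libraries. Because each library is a bulk sample, fewer cells of a type and less RNA per cell cannot be told apart in any result below.

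Reads over the whole Hnf4a gene (chromosome 2, 163506808 to 163572910, plus strand, GRCm38) did not separate the genotypes. Control libraries 1 to 4 held Hnf4a at 2.28, 3.70, 5.70 and 6.98 CPM, and Hnf4a-removed libraries 1 to 3 at 3.02, 4.67 and 2.55 CPM. These ranges overlap and rest on 16 to 48 reads per library. The log2 fold change was -0.44 (SE 0.44, 95% interval -1.38 to 0.50, edgeR adjusted p = 0.930), so neither a 2-fold loss nor no loss was excluded at this depth. For Hnf4g (chromosome 3, 3508030 to 3658052), which has the same genotype in both groups, control libraries were at 9.13, 13.1, 15.9 and 12.9 CPM and Hnf4a-removed libraries at 9.52, 7.74 and 6.22 CPM. Its log2 fold change was -0.70 (SE 0.32, 95% interval -1.38 to -0.02, unadjusted p = 0.0437, edgeR adjusted p = 0.830), which did not pass the test. Counts over a whole gene include exons outside a deleted part, and the library kit does not record strand, so Hnf4a counts cannot be separated from those of its antisense neighbour Hnf4aos. For these reasons the counts do not check the genotype labels.

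By edgeR, Serinc3 was the 1 gene of 18775 tested that was called in Hnf4a-removed against control mTEClo, and it rose. Serinc3 encodes a multipass membrane protein of the serine incorporator family, members of which restrict the infectivity of some retroviruses. Control libraries 1 to 4 held 164, 155, 183 and 167 CPM, and Hnf4a-removed libraries 1 to 3 held 310, 299 and 254 CPM. Every Hnf4a-removed library lay above every control library, and the lowest of them exceeded the highest control by more than the whole control range. The log2 fold change was 0.78 (SE 0.10, 95% interval 0.58 to 0.98, edgeR adjusted p = 0.00972). The share of genes called was 0.00533%. Serinc3 had also been given as the marker of this comparison, so its rise in these libraries was known beforehand. The call was lost in edgeR without control replicate 1, 2 or 4 (adjusted p = 0.0575 to 0.0739) and without Hnf4a-removed replicate 1 or 2 (0.109 and 0.114), while the log2 fold change stayed at 0.73 to 0.86 whichever library was left out. It was also lost when the 7 libraries were fitted alone (0.79, adjusted p = 0.214).

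Libraries that took no part in that comparison gave the same direction. Double-mutant mTEClo held Serinc3 at 336, 315, 337 and 291 CPM and Hnf4g-removed mTEClo, which keep an intact Hnf4a allele, at 166, 160 and 146 CPM, again without overlap. The log2 fold change between them was 1.02 (SE 0.10, edgeR adjusted p = 0.000401). The share called between these groups was 0.0107%, and the other gene was the ribosomal protein gene Rps12, which was lower in the double mutant and is named here because of its call. In mTEChi, the subset with high surface levels of the maturation markers, Serinc3 was at 142 ± 13.8 CPM in control and 217 ± 19.0 CPM in double-mutant cells (SD, n = 4 each; log2 fold change 0.61, SE 0.11, edgeR adjusted p = 0.0255, with 0.635% of genes called). Whether the second gene matters for Serinc3 was tested directly: double-mutant and Hnf4a-removed mTEClo differed by 0.15 (95% interval -0.05 to 0.36, edgeR adjusted p = 0.603), and the Hnf4a effect on the 2 Hnf4g backgrounds differed by 0.24 (-0.05 to 0.54, adjusted p = 0.711). Neither passed, and both intervals leave room for a further rise of a modest size. Among wild-type cells, Serinc3 was higher in the sorted entero-hepato gate than outside it, at 179 ± 30.8 against 69.5 ± 4.02 CPM (SD, n = 3 each; log2 fold change 1.37, edgeR adjusted p = 8.14e-05). The other measured members of the family gave no call: Serinc1 was at 174 ± 16.2 in control and 192 ± 12.6 CPM in Hnf4a-removed cells, Serinc2 at 148 ± 13.1 and 160 ± 9.67, and Serinc5 at 24.9 ± 5.49 and 25.6 ± 4.05 (SD, n = 4 and 3).

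**Figure D1:**
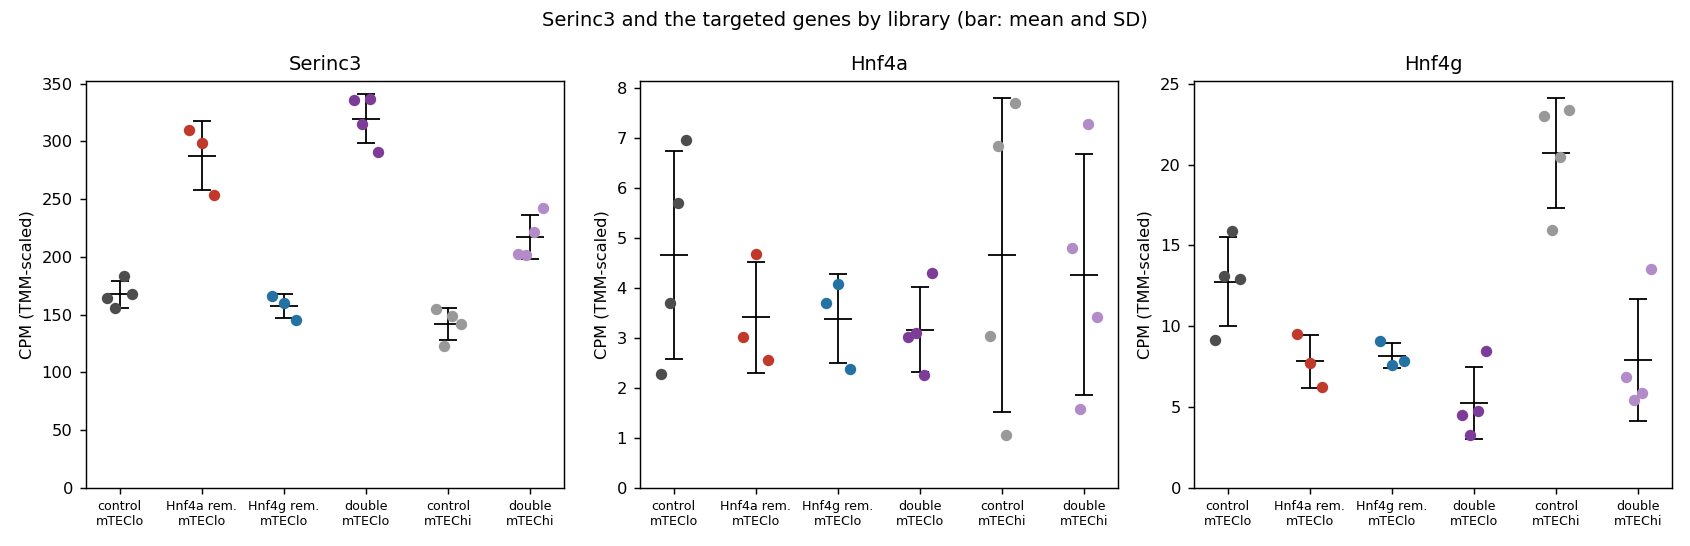
CPM of Serinc3, Hnf4a and Hnf4g in each library of 6 groups (mTEClo of 4 genotypes, mTEChi of 2); each point is a library and the bars give mean and SD. The 3 Hnf4a-removed libraries hold Serinc3 at 254 to 310 CPM, above the 4 controls at 155 to 183 CPM, while Hnf4a itself overlaps between the groups.

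Serinc3 lies on the same chromosome as Hnf4a (chromosome 2, 163623272 to 163645131, minus strand), with 50.4 kb between the 2 genes. Its promoter is shown so that the DNA before the start of the 1 gene called against control can be read beside its values. The sequence is the 250 bases before the start site from RefSeq (GRCm38.p6, chr2:163645144-163645393, minus strand), printed in the direction of transcription, and capitals would mark the HNF4-type element CAAAGTNCA on either strand.
Serinc3 promoter: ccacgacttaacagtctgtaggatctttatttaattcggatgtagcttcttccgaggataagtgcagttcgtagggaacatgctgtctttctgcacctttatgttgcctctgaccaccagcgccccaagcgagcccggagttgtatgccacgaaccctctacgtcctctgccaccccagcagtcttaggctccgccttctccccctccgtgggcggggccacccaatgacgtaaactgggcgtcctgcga
No match to CAAAGTNCA or to the shorter CAAAGT was found in it, nor in the 50 bases after the start. The longer motif occurs in 1.41% and the shorter one in 14.4% of the 32851 RefSeq windows of 300 bases, counting both strands, and every CAAAGTNCA match holds a CAAAGT match. Absence of these letters from this window says nothing on binding elsewhere.

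The genes around Hnf4a were examined because the floxed allele and the DNA linked to it differ in dose between the groups there. Of 29 tested genes that start within 1 Mb of the Hnf4a start, Serinc3 was the 1 that passed, and of 99 within 5 Mb it was again the 1. At unadjusted p under 0.05, 3 of the 29 were higher and 5 lower, against a background of 2.83% and 3.19% of all genes. The nearest tested genes before Hnf4a were Fitm2, Gdap1l1, 2900093K20Rik and Oser1, and those after it Ttpal, Serinc3, Pkig and Ada. Fitm2, which acts in lipid droplet formation, was at 8.40 ± 2.40 in control and 11.8 ± 3.60 CPM in Hnf4a-removed cells. Ttpal, a lipid-transfer protein gene between Hnf4a and Serinc3, was at 39.1 ± 7.17 and 30.5 ± 6.11 CPM (log2 fold change -0.36, 95% interval -0.76 to 0.04). Among these 8 genes, Serinc3 alone was called.

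Pkig, which encodes an inhibitor of protein kinase A and starts 152 kb from the Hnf4a start against 138 kb for Serinc3, had lower values without passing. Control libraries held 27.9, 15.7, 32.4 and 30.2 CPM and Hnf4a-removed libraries 15.9, 13 and 17.1 CPM. The ranges overlap through control 2. The log2 fold change was -0.80 (SE 0.23, 95% interval -1.28 to -0.31, edgeR adjusted p = 0.706). In mTEChi, Pkig fell in the double mutant (log2 fold change -0.94, SE 0.18, edgeR adjusted p = 0.0310). Between double-mutant and Hnf4g-removed mTEClo it differed by -0.59 (adjusted p = 0.367 by edgeR), which did not pass. Of the more distant genes, Matn4, which encodes a matrix protein, was at 18.3, 11.9, 16.8 and 15.8 CPM in control and 5.90, 8.18 and 5.90 CPM in Hnf4a-removed libraries, without overlap (log2 fold change -1.23, edgeR adjusted p = 0.706). Slpi, a secreted protease inhibitor, was at 9.46 ± 6.10 and 2.03 ± 0.461 CPM (-2.21, adjusted p = 0.730 by edgeR). In double-mutant over Hnf4g-removed mTEClo, Matn4 and Slpi were at log2 fold changes of -0.69 and -1.52. In double-mutant over control mTEChi they were at 0.29 and -1.65. Tox2 and Sys1 were also lower than control at unadjusted p under 0.05, at -1.04 and -0.49. By the same rule Oser1 and Tomm34 were higher, at 0.45 and 0.32. Between double-mutant and Hnf4g-removed mTEClo those 2 were at 0.01 and -0.29. None of these values passed edgeR. Near Hnf4a, loss of its protein and the change in the DNA around it cannot be told apart in these groups.

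**Figure D2:**
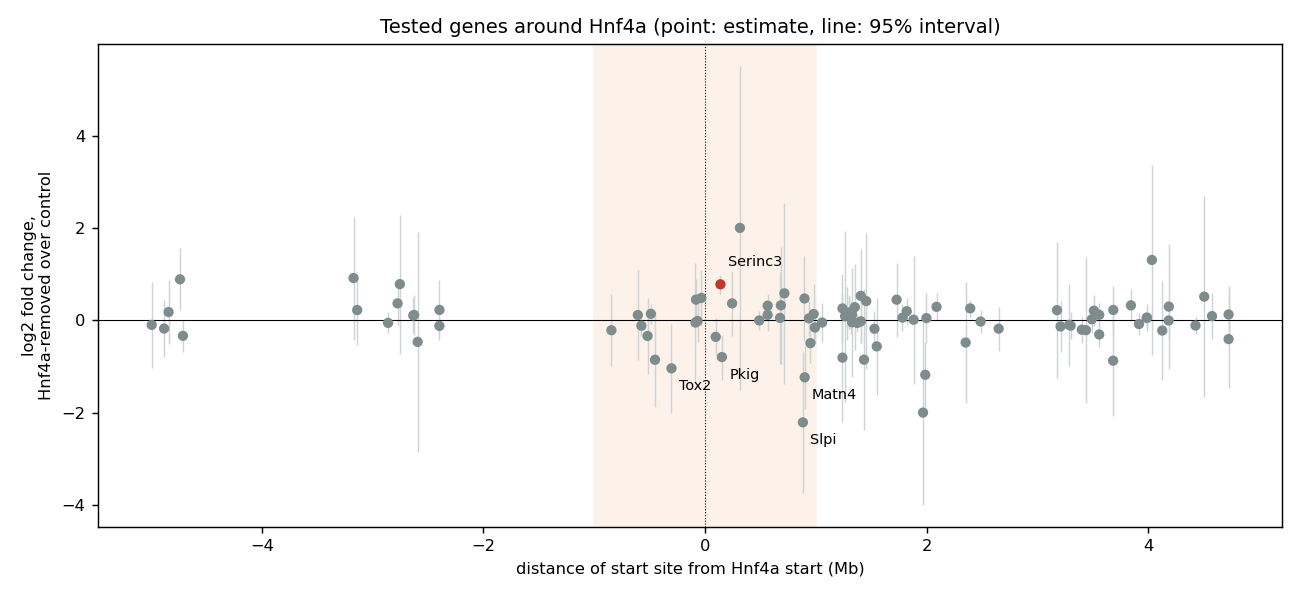
Log2 fold change of Hnf4a-removed over control mTEClo for the 99 tested genes within 5 Mb of the Hnf4a start, by distance in Mb; lines are 95% intervals and the shaded band is 1 Mb either side. Serinc3, in red, is the 1 gene that passed, while Pkig, Tox2, Matn4 and Slpi lie below 0 and did not pass.

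Across all genes the comparison was close to flat. No gene was called lower by edgeR, and at unadjusted p under 0.05 there were 532 higher (2.83%) and 598 lower genes (3.19%), 1130 (6.02%) in all. Libraries of the 2 groups did not overlap for 637 higher (3.39%) and 655 lower genes (3.49%), 6.88% in all. The median log2 fold change was -0.01. The 95% interval excluded a change of 2-fold in either direction for 57.9% of genes and a 2-fold loss for 69.3%. For the other genes a change of that size was not excluded at this depth. DESeq2 called 8 genes: Serinc3, Cldn4, Prr15, Rab5c and Mmp13 higher and Itgb8, Sis and Ubxn2a lower. With the replicate number as a block, edgeR called 1 gene, the transferrin gene Trf (log2 fold change -1.69, adjusted p = 0.00256), and not Serinc3 (0.75, adjusted p = 0.0544).

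**Figure D3:**
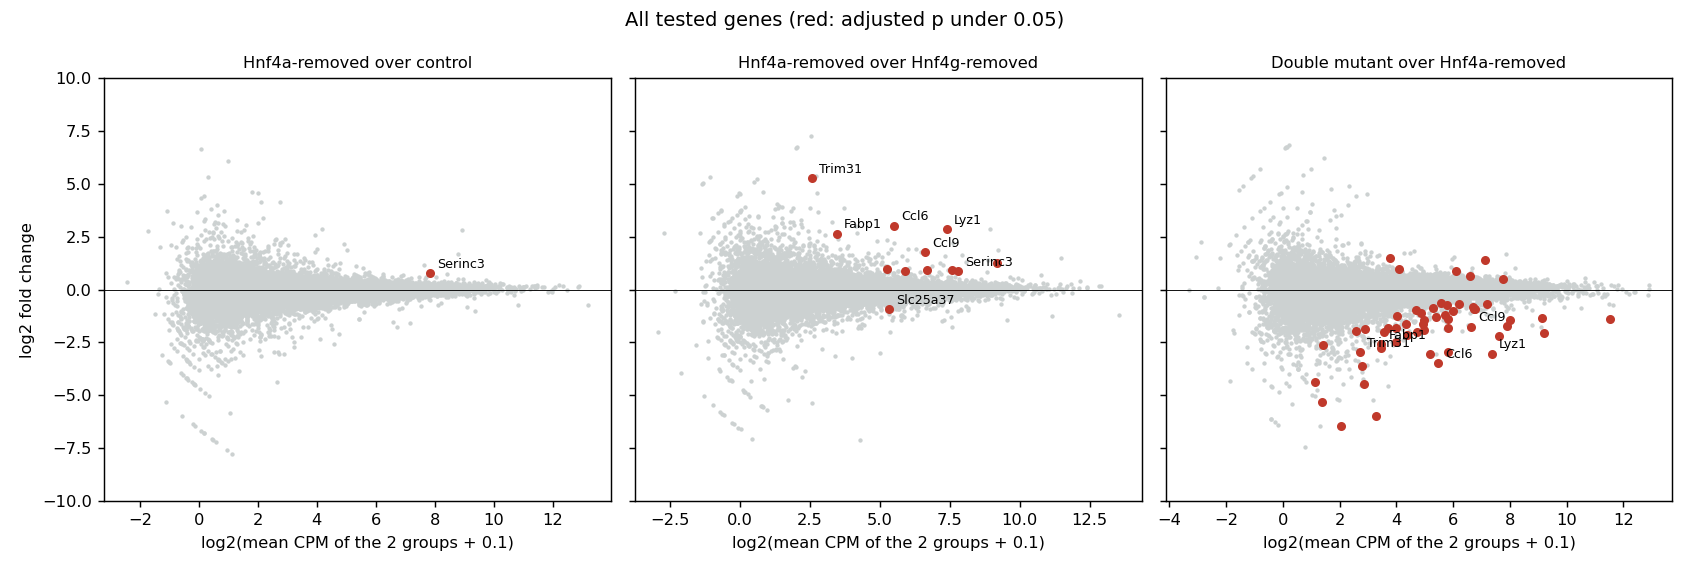
Log2 fold change against log2 mean CPM for all 18775 tested genes in 3 comparisons that involve Hnf4a-removed mTEClo; red points passed at adjusted p under 0.05. The panels hold 1, 12 and 55 red points.

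The genes next in rank above control did not pass edgeR, and they were chosen among genes whose libraries did not overlap. Cldn4, a tight-junction claudin of mature mTECs, was at 245, 241, 237 and 323 CPM in control and 396, 384 and 510 CPM in Hnf4a-removed libraries (log2 fold change 0.72, 95% interval 0.41 to 1.03, edgeR adjusted p = 0.529). Prr15 was at 99.2, 66.6, 93.7 and 96.4 CPM against 126, 152 and 144 CPM, and Rab5c, a GTPase of early endosomes, at 40.3 to 52.0 against 63.3 to 78.0 CPM. In Hnf4g-removed cells the means of Cldn4, Prr15 and Rab5c were 365, 94.1 and 60.5 CPM. Ing3, a subunit of a histone acetyltransferase complex, was at 18.1 ± 1.85 and 31.6 ± 2.78 CPM, and the tetraspanin Cd151 at 38.8 ± 4.93 and 69.4 ± 10.1 CPM (SD, n = 4 and 3). The remaining genes chosen by rank in this direction were Cdkal1, Dhx58, Enc1 and Ttll11, with log2 fold changes of 0.42 to 0.77. Mmp13, a collagenase called by DESeq2, had 6, 0, 5 and 1 reads in control and 73, 51 and 34 reads in Hnf4a-removed libraries. It passed the filter on low counts only through the Hnf4a-removed group, so its values are given as a description.

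Below control, Itgb8 led by p. It encodes an integrin subunit that activates latent TGF-beta, and was at 73.0, 76.4, 74.2 and 87.2 CPM in control and 46.7, 46.9 and 53.1 CPM in Hnf4a-removed libraries (log2 fold change -0.67, 95% interval -0.93 to -0.41, edgeR adjusted p = 0.493). In Hnf4g-removed libraries it was at 47.5 to 56.7 CPM. Sis, the brush border enzyme sucrase-isomaltase, was at 8.996, 10.2, 19.3 and 24.9 CPM against 3.48, 1.46 and 3.51 CPM (-2.49, 95% interval -3.62 to -1.35, adjusted p = 0.529 by edgeR). Gcnt3, which branches mucin-type glycans, was at 11.95, 11.2, 13.9 and 11.9 CPM against 2.87, 2.78 and 3.51 CPM (-2.0, adjusted p = 0.706 by edgeR). In Hnf4g-removed and double-mutant cells Sis was at 2.10 and 1.74 CPM, and Gcnt3 at 7.76 and 10.01 CPM. The other genes chosen by rank were Ubxn2a, Sh3d19, Relch, Ankib1, Synpo2, Slc25a37 and Frs2, at log2 fold changes of -0.89 to -0.51. None of the lower genes passed edgeR.

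By edgeR the gut and liver lists held no called gene, while DESeq2 called Sis and the replicate block Trf. The counts that follow are to be read against the 2.83% of all genes that were higher and the 3.19% that were lower at unadjusted p under 0.05. Of 32 tested brush border genes, which build and cover the enterocyte microvilli, none was higher and 2 lower at unadjusted p under 0.05, Sis and Pdzk1, and the list's median log2 fold change was -0.08 against -0.01 for all genes. For 16 of the 32 the interval excluded a 2-fold change either way. Lipid handling had 1 higher and 3 lower of 29 by the same unadjusted rule, intestinal transporters 0 and 1 of 29, and xenobiotic metabolism 1 and 3 of 31, with medians of -0.11, -0.16 and -0.22. Among hepatocyte plasma protein genes 5 of 35 were lower and none higher, with a median of -0.06. The 5 included Ttr, the thyroid hormone carrier transthyretin, at 2.55, 7.09, 16.6 and 18.3 CPM in control and 0.605, 1.90 and 1.75 CPM in Hnf4a-removed libraries (log2 fold change -2.96, 95% interval -4.90 to -1.01, edgeR adjusted p = 0.706). They also included Trf, at 74.1, 176, 194 and 127 CPM against 19.0, 58.1 and 71.3 CPM (-1.53, adjusted p = 0.727 by edgeR).

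Regulators of those programs gave values of both signs. Of 21 gut and liver transcription factor genes, 1 was higher, Elf3, and 3 lower at unadjusted p under 0.05. Creb3l3, a membrane-bound factor of liver and intestine that controls lipid genes, was at 1.48, 3.39, 4.80 and 8.14 CPM in control and 0.302, 0.584 and 0.797 CPM in Hnf4a-removed libraries (log2 fold change -2.95, edgeR adjusted p = 0.768). Tcf7l2, a Wnt pathway factor, was at 87.2 ± 13.7 and 69.4 ± 2.56 CPM, and the posterior gut gene Hoxb13 at 6.89 ± 7.03 and 1.27 ± 0.542 CPM. Of 35 nuclear receptors, 2 were higher and 0 lower by the unadjusted rule. One was Thra, the thyroid hormone receptor, at 12.2, 12.02, 14.7 and 15.99 CPM against 28.9, 21.6 and 18.3 CPM (log2 fold change 0.74, adjusted p = 0.742 by edgeR), and the other Nr4a1 at 111 ± 34.7 and 152 ± 20.4 CPM.

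Other mimetic programs also held no gene called by edgeR. Against the same shares of all genes, 2.83% higher and 3.19% lower, of 30 tuft genes, 7 were higher and 0 lower at unadjusted p under 0.05, with a median of 0.14, and in 29 of the 30 the interval excluded a 2-fold change either way. Sh2d7, a tuft cell adaptor, was at 369 ± 46.2 in control and 526 ± 94.5 CPM in Hnf4a-removed cells, and the interleukin-25 receptor subunit Il17rb at 159 ± 11.6 and 199 ± 15.7 CPM (SD, n = 4 and 3). The summed tuft level was 16400 to 21444 CPM in control and 19874 to 21534 CPM in Hnf4a-removed libraries, with overlap. Of 33 goblet and secretory genes 0 were higher and 3 lower, with a median of -0.34. They were Clca1, a secreted goblet cell protein, at 210, 206, 243 and 200 CPM against 36.0, 67.6 and 110 CPM (log2 fold change -1.60, edgeR adjusted p = 0.706), Scgb1a1 at 145 and 77.8 CPM, and Clca4a, given below. Microfold genes, which mark cells that sample the gut lumen, had 1 higher of 19, the Ets factor Spib at 728 ± 61.3 and 986 ± 140 CPM, and a median of 0.06. Neuroendocrine genes had 2 higher and 2 lower of 33. Among those, Chga was at 404, 90.0 and 1526 CPM in the 3 Hnf4a-removed libraries, so library 3 set its mean.

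Genes of the cell state were compared in the same way, again beside 2.83% higher and 3.19% lower of all genes. Of 24 Aire-stage genes, 1 was higher and 1 lower at unadjusted p under 0.05, with a median of -0.12. Aire was at 207, 413, 442 and 559 CPM in control and 187, 425 and 461 CPM in Hnf4a-removed libraries (log2 fold change -0.18, SE 0.41, 95% interval -1.05 to 0.69). Library 1 was the lowest for Aire in both groups and also in Hnf4g-removed cells. Proliferation genes had no member past the unadjusted rule among 36. Immediate early and heat shock genes, which respond to dissociation, had 5 higher and 0 lower of 29 and a median of 0.11. Their summed level was 9012 to 9902 CPM in control and 9524 to 11261 CPM in Hnf4a-removed libraries, and its part in the other results was not tested. Junb was at 692 ± 29.1 and 815 ± 60.7 CPM and Btg2 at 636 ± 61.0 and 783 ± 99.6 CPM (SD, n = 4 and 3). By edgeR none of the remaining lists held a called gene. DESeq2 called Cldn4, a member of the mTEC identity and Aire-stage lists. By the unadjusted rule, hepatocyte metabolism had 0 higher and 1 lower of 28, ciliated genes 0 and 1 of 28, keratinocyte genes 1 and 0 of 29, muscle genes 0 and 1 of 24, immature mTEC genes 0 and 0 of 13, cortical epithelial genes 0 and 1 of 15, and mTEC identity genes 3 and 0 of 13. Of the marker lists of other cells, fibroblast and endothelial genes each had 1 higher and 1 lower, of 14 and 10, and thymocyte, myeloid, B cell and erythroid genes had none.

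**Figure D4:**
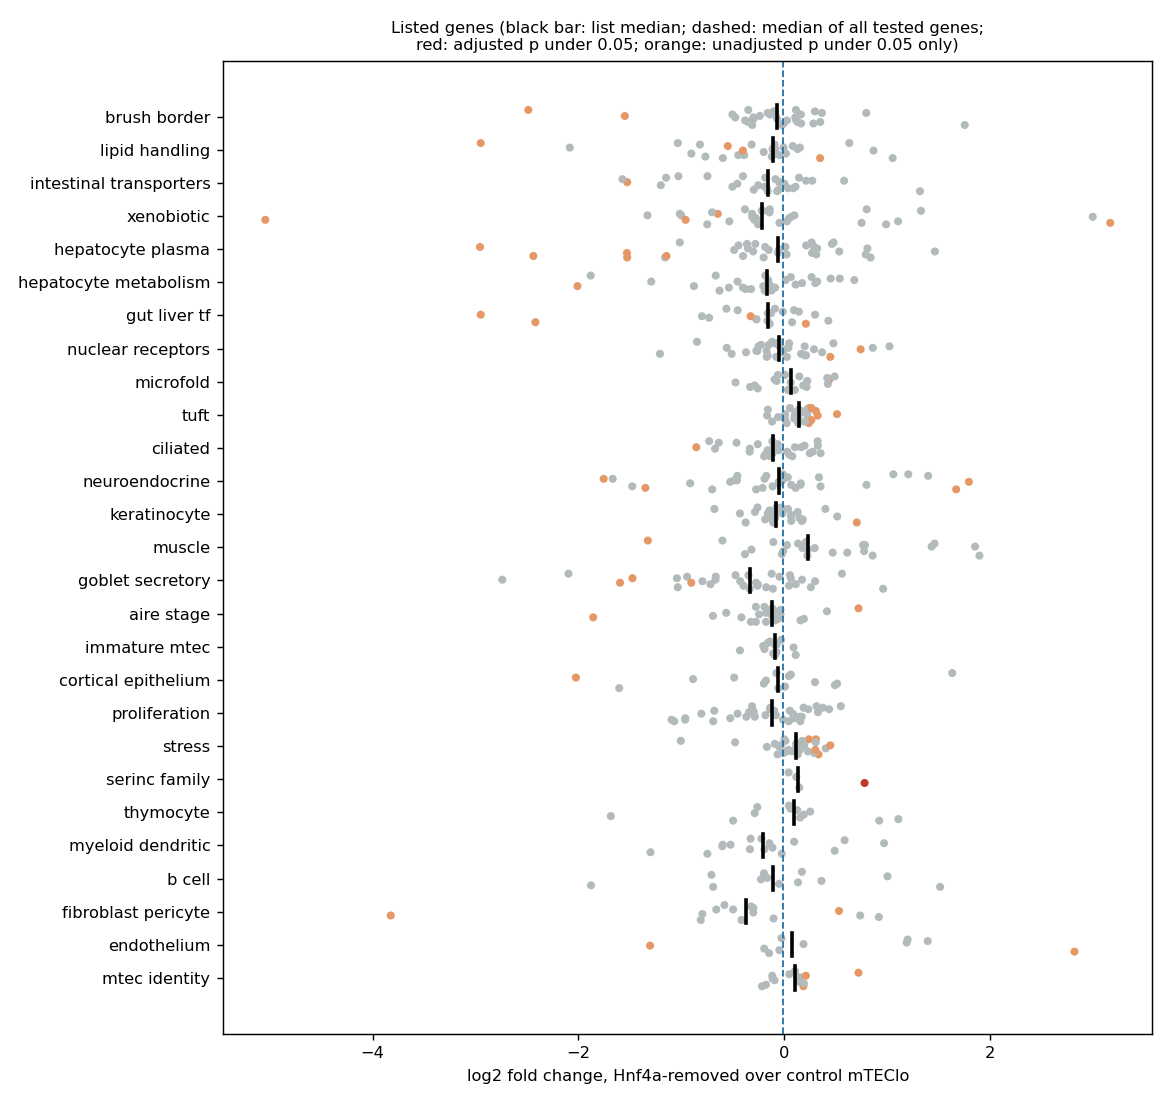
Log2 fold change of Hnf4a-removed over control mTEClo for the tested members of 27 gene lists, with the list median as a black bar and the median of all genes as a dashed line; orange marks unadjusted p under 0.05, and the erythroid list, with 2 tested genes, is left out. Serinc3 in the Serinc family list is the 1 red point; list medians lie between -0.37 and 0.23.

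A broader list was taken from wild-type libraries that have no part in the mutant comparison. Between the entero-hepato gate and the cells outside it 44.5% of 16811 genes were called, and 2147 were higher in the gate with a log2 fold change over 1, and 2020 of them were tested here. In Hnf4a-removed against control mTEClo, 58 of the 2020 were higher and 71 lower at unadjusted p under 0.05, against 2.83% and 3.19% of all genes, and their median log2 fold change was -0.06 against -0.01. For 766 genes with a gate log2 fold change over 2, 12 were higher and 29 lower, with a median of -0.13. By edgeR the 1 called gene of the larger list was Serinc3.

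All tested genes were compared between the single removals, a contrast that leaves the control libraries out. Of the genes described below, Fabp1, Ccl6, Ccl9, Lyz1, Cdhr5 and Trim31 belong to a set of gut genes chosen with earlier results of these data known. Of 18775 genes, 11 were higher (0.0586%) and 1 lower (0.00533%) in Hnf4a-removed cells, 0.0639% in all by edgeR. All 11 higher genes belong to the wild-type entero-hepato list, which holds 12.4% of the 16252 genes tested in both. Of 32 brush border genes 13 were higher and 0 lower at unadjusted p under 0.05, and of 19 microfold genes 12 were higher and 1 lower, against 3.39% and 4.32% of all genes (7.71% in either direction). The called genes were Serinc3, Trim31, Serpinb6a, Calml4, Ccl9, Fabp1, Cdhr5, Agrn, Lyz1, Ccl6 and Rhoc. Fabp1, the fatty acid binding protein of enterocytes and hepatocytes, was at 11.3, 24.96, 45.0 and 32.6 CPM in control, 20.9, 14.6 and 20.9 CPM in Hnf4a-removed and 2.97, 3.36 and 2.66 CPM in Hnf4g-removed libraries. The last group lay below both others, whose ranges overlap. Its log2 fold change of Hnf4a-removed over Hnf4g-removed was 2.64 (SE 0.41, edgeR adjusted p = 0.0208), and that over control -0.60 (95% interval -1.31 to 0.12, adjusted p = 0.862). With limma voom the first difference did not pass (2.61, adjusted p = 0.486).

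Ccl6 and Ccl9 encode chemokines. Ccl6 was at 83.0, 60.9 and 98.4 CPM in Hnf4a-removed and 17.8, 10.6 and 2.10 CPM in Hnf4g-removed libraries (log2 fold change 3.02, SE 0.49, edgeR adjusted p = 0.0263), with controls at 49.3 to 112 CPM. Ccl9 was at 148, 138 and 168 CPM against 46.6, 63.0 and 24.5 CPM (1.77, SE 0.25, adjusted p = 0.0106 by edgeR), with controls at 115 to 171 CPM. Lyz1, the Paneth cell lysozyme, was at 223, 397 and 258 CPM against 19.7, 56.0 and 45.9 CPM (2.85, SE 0.46, edgeR adjusted p = 0.0261). For the microvillus protocadherin Cdhr5 the values were 207, 276 and 268 against 149, 138 and 114 CPM (0.91, SE 0.14, edgeR adjusted p = 0.0208). Over control these genes had log2 fold changes of -0.08, 0.01, -0.33 and 0.12, with 95% intervals of -0.93 to 0.77, -0.47 to 0.48, -1.17 to 0.50 and -0.16 to 0.39. A 2-fold change from control in either direction lay outside the intervals of Ccl6, Ccl9 and Cdhr5, while a 2-fold loss lay inside that of Lyz1.

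Trim31, a ubiquitin ligase of the intestinal epithelium, had the widest difference. Hnf4a-removed libraries held 13.8, 9.93 and 10.4 CPM and Hnf4g-removed libraries 0.185, 0.354 and 0.280 CPM, from 65 to 91 and 1 to 2 reads. The fitted log2 fold change was 5.28 (SE 0.70, 95% interval 3.79 to 6.76, edgeR adjusted p = 0.0106), and its size is uncertain because of the few reads. Controls were at 5.37, 15.1, 14.4 and 14.1 CPM. The 1 lower gene was Slc25a37, the mitochondrial iron carrier mitoferrin-1, at 28.1, 27.0 and 27.4 CPM in Hnf4a-removed, 54.2, 52.6 and 50.8 CPM in Hnf4g-removed and 34.98 to 42.9 CPM in control libraries (log2 fold change -0.93, SE 0.13, edgeR adjusted p = 0.0106). Serinc3 and Trim31 stayed called whichever of the 6 libraries was left out. For Serinc3 this reuses the Hnf4a-removed libraries in which its rise was known beforehand, so its call here is a description. Trim31 belongs to the gut genes chosen with earlier results known. The count fell to 2 without Hnf4a-removed replicate 3 and reached 39 without Hnf4g-removed replicate 3, and with the libraries numbered 1 left out it was 7. Among these 6 fits Ccl9 and Serpinb6a lost the call only without Hnf4a-removed replicate 3, and Calml4 also without Hnf4g-removed replicate 2. Slc25a37 lost it without Hnf4a-removed replicate 2 or 3. Fabp1, Agrn, Lyz1, Ccl6, Cdhr5 and Rhoc lost it in 3 to 6 of the 6 fits, at adjusted p up to 0.202, with no change of sign. With voom Ccl6 also lost the call (adjusted p = 0.0643), with the replicate block Ccl6 lost it (0.0600 in edgeR), and without the libraries numbered 1 Ccl9 and Lyz1 lost it (0.0912 and 0.146 in edgeR).

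Promoters of Trim31 and Ccl9 are shown because these genes were called between the single removals and their windows hold an HNF4-type element. Of 18 genes looked up, 16 had RefSeq windows and 3 of those, Trim31, Ccl9 and Muc13, held CAAAGTNCA in at least 1 window. The 1.41% given above is a share of windows and not of genes, and several of these genes have more than 1 window. A share per gene was not computed over all genes, so 3 of 16 has no background beside it. Besides Serinc3, the windows of Fabp1, Ccl6, Lyz1, Cdhr5, Calml4, Agrn, Rhoc, Serpinb6a, Mep1a, Vil1, Pkig and Hnf4a held no match. Muc13, Mep1a and Vil1 were looked up although edgeR did not call them between the single removals. Each sequence is the 250 bases before the start in the direction of transcription (GRCm38.p6, chr17:36897880-36898129, plus strand, and chr11:83578637-83578886, minus strand), and capitals mark the match, which in both genes is on the opposite strand and so reads TGNACTTTG.
Trim31 promoter: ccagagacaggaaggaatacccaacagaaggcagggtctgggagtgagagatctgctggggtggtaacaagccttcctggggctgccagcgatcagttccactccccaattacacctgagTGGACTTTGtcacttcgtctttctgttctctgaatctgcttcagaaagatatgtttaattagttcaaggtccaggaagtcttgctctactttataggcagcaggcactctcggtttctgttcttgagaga
Ccl9 promoter: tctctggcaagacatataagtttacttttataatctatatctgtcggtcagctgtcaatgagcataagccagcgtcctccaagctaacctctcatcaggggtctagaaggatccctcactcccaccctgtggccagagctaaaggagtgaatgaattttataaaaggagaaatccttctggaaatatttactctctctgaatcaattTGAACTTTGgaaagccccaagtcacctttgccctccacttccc
The Trim31 match is the fuller CAAAGTCCA, which is found in 0.475% of windows. A match is a description of the letters, and binding was not measured.

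**Figure D5:**
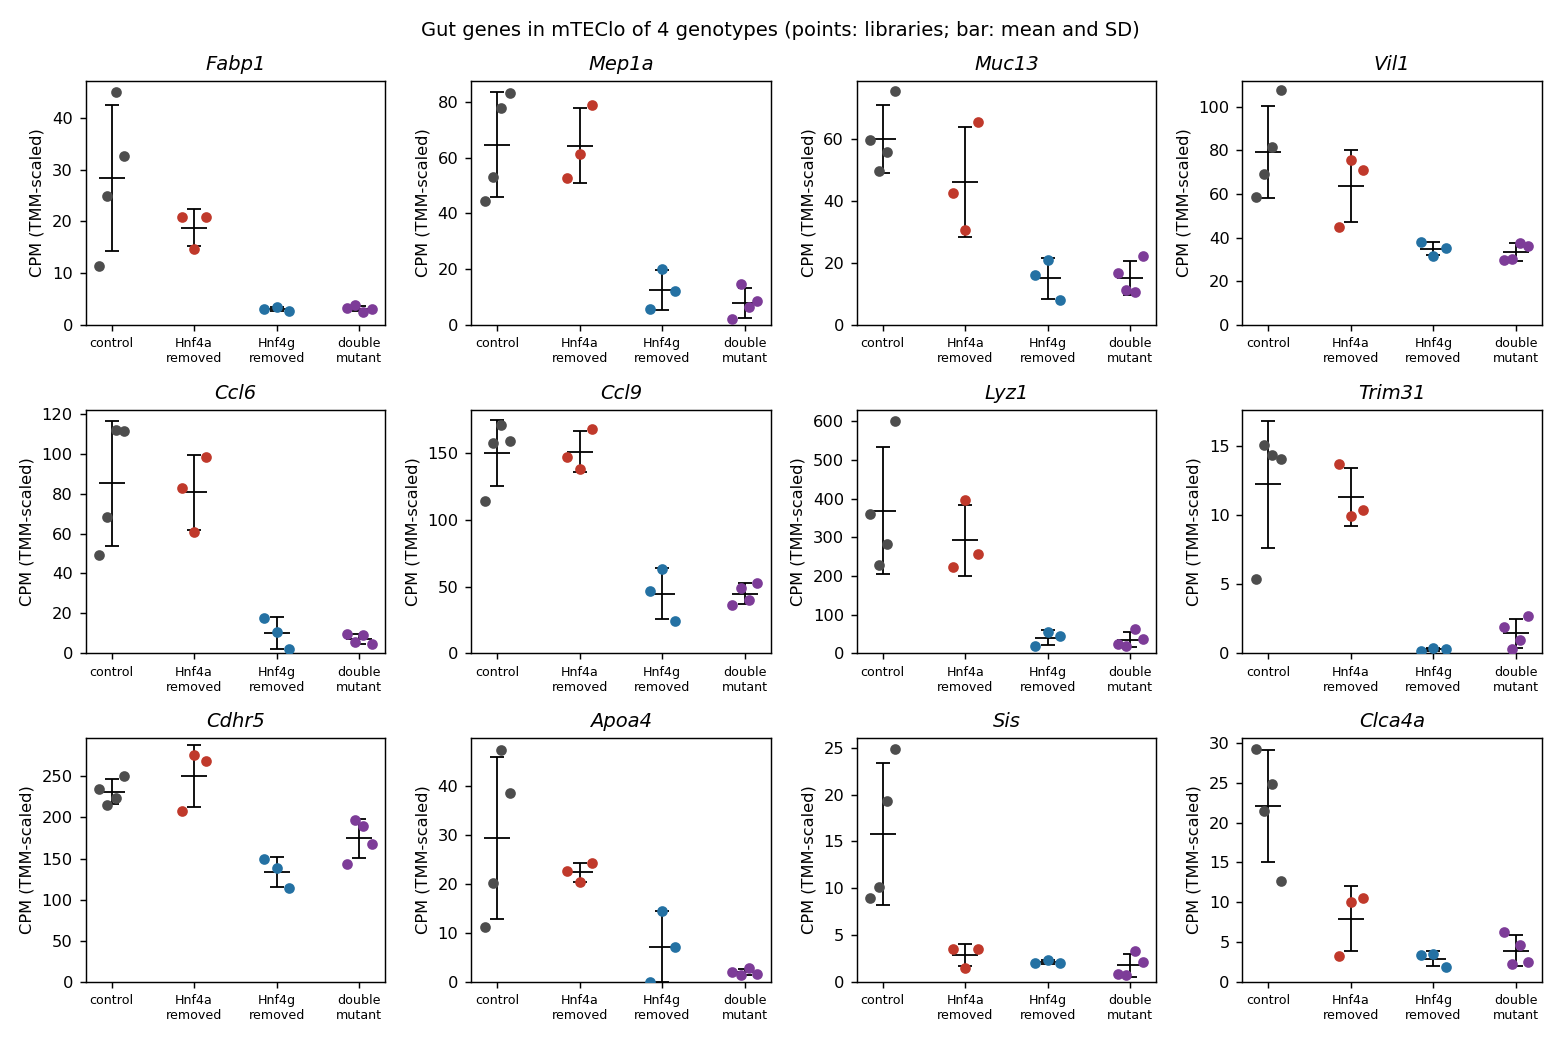
CPM of 12 gut genes in each mTEClo library of 4 genotypes, with mean and SD. Fabp1, Mep1a, Ccl6, Ccl9, Lyz1 and Trim31 overlap between control and Hnf4a-removed libraries and lie lower in Hnf4g-removed and double-mutant ones, while Sis is low in all 3 mutant groups.

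Other gut genes were not called by edgeR between the single removals. Clca4a was at 29.3, 21.4, 24.9 and 12.6 CPM in control, 3.17, 10.1 and 10.5 CPM in Hnf4a-removed and 1.82 to 3.54 CPM in Hnf4g-removed libraries. Its Hnf4a-removed libraries lay below every control, with a log2 fold change of -1.48 (95% interval -2.42 to -0.53, edgeR adjusted p = 0.706). Vil1, villin of the microvillus core, was at 44.9, 75.5 and 70.9 CPM against 37.8, 31.7 and 35.1 CPM in Hnf4g-removed libraries (0.87, adjusted p = 0.266 by edgeR). The mucin Muc13 was at 42.6, 30.5 and 65.4 CPM against 15.9, 20.9 and 7.99 CPM (1.64, adjusted p = 0.136 by edgeR), and the brush border protease Mep1a at 52.8, 61.2 and 78.9 CPM against 5.56, 20.01 and 12.1 CPM (2.35, adjusted p = 0.107 by edgeR). These 3 genes belong to a set chosen with earlier results of these data known. None passed edgeR with the filter on low counts and no replicate block. Without the filter all 3 passed, but that fit also gave them smaller SEs (0.21 against 0.48 for Mep1a). Mep1a passed with the block (2.50, edgeR adjusted p = 0.0308) and DESeq2 called all 3, at adjusted p of 0.0246 for Mep1a, 0.0406 for Vil1 and 0.00167 for Muc13. The apolipoproteins Apoa4 and Apoc3 were at 22.4 and 9.23 CPM in Hnf4a-removed cells, and at 7.16 and 1.36 CPM in Hnf4g-removed cells.

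Removing Hnf4g in addition to Hnf4a was compared as double-mutant over Hnf4a-removed mTEClo, again without the controls in the contrast. By edgeR, 49 genes fell (0.261%) and 6 rose (0.032%), 0.293% of genes in all. Of the 49, 45 belong to the wild-type entero-hepato list, which holds 12.4% of the 16252 genes tested in both. Of 32 brush border genes 5 fell and of 19 microfold genes 7 fell, with list medians of -0.69 and -0.98. At unadjusted p under 0.05, 16 of the brush border and 14 of the microfold genes were lower, against 5.97% of all genes, and 1 of each list was higher, against 4.99%. Cell-state genes had lower values too without a call in edgeR: 12 of 24 Aire-stage genes (median -0.62) and 11 of 36 proliferation genes (median -0.76) were lower by the unadjusted rule, and their part in the result was not tested. Aire itself was called without the libraries numbered 1 (-1.21, edgeR adjusted p = 0.00247). Ccl6 fell to 4.61 to 9.45 CPM (log2 fold change -3.48, SE 0.45, edgeR adjusted p = 0.00379) and Lyz1 to 19.3 to 63.0 CPM (-3.04, SE 0.41, adjusted p = 0.00603 by edgeR). Mep1a was at 1.92 to 14.6 CPM in double-mutant libraries (-3.04, edgeR adjusted p = 0.0113). Lypd8, which keeps bacteria from the colon surface, was at 93.0, 37.5 and 170 CPM in Hnf4a-removed and 10.3 to 15.8 CPM in double-mutant libraries (-2.96, adjusted p = 0.0133 by edgeR). Trim31 was at 0.295 to 2.68 CPM in double-mutant libraries (-2.95, adjusted p = 0.0257 by edgeR). Prap1, Ceacam20 and Reg1 completed the genes chosen by size of the fall, at log2 fold changes of -4.48, -3.63 and -5.98.

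Mmp13 is among the 49, at 0 to 2 reads in double-mutant libraries, but it was tested only because of its reads in Hnf4a-removed libraries, and no fold is given. Among those that rose, Scgb1a1, a secretory airway protein gene, was at 53.2, 68.1 and 112 CPM in Hnf4a-removed and 181 to 229 CPM in double-mutant cells (1.39, adjusted p = 0.0468 by edgeR), with controls at 81.7 to 200 CPM. The 7 genes that stayed called whichever library was left out were Ccl6, Ccl9, Fabp1, Fgr, Lgals4, Lyz1 and Serpinb6a, and Fgr and Lgals4 are named for that reason alone. Fabp1 lost the call with limma voom (-2.56, adjusted p = 0.102). Mep1a, Lypd8 and Ceacam20 lost the call in 1 of the 7 fits, Prap1 in 3, Trim31 in 4, Reg1 in 6 and Scgb1a1 in all 7. The count was 7 without Hnf4a-removed replicate 3, 34 without Hnf4a-removed replicate 2, and 25, 18 and 31 without double-mutant replicate 1, 3 and 4. With the libraries numbered 1 of the other 3 groups left out it was 216, and with the replicate block 104. The Hnf4a effect was also compared between the Hnf4g backgrounds gene by gene, and by edgeR 0 genes were called, with 1473 (7.85%) at unadjusted p under 0.05, 700 of them higher (3.73%) and 773 lower (4.12%), and 100 called by DESeq2.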

How the data were processed

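RNA was measured in bulk libraries of 1000 sorted cells each, made with oligo(dT) priming, 18 PCR cycles and paired 38-base reads without molecular identifiers, per the labels' protocols. The authors deposited whole-number counts of reads per gene symbol for 55011 symbols and 28 libraries, and the submitters' processing notes name STAR 2.7.3a, featureCounts and the build mm10. All 14 mTEClo libraries of 4 genotypes were fitted together in edgeR 4.0.16 (R 4.3.3) with TMM scaling, filterByExpr (minimum count 10, minimum total 15) and the quasi-likelihood test, adjusted by Benjamini-Hochberg over 18775 genes and called at 0.05. The depth of each library bounds the precision of low genes, and intervals are at 95%. Alternatives were RLE scaling, no filter, DESeq2 1.42.0, limma 3.58.1 voom, a replicate block, a fit of the 7 libraries alone, leaving out each library, and leaving out 3 libraries numbered 1, the last chosen after seeing the data. Tests were tried on simulated data. Positions came from GENCODE M21, which held 52936 of the symbols, and promoters from RefSeq. No library was counted as a duplicate: pairs within the groups compared differed beyond sampling noise (chi-square per degree of freedom 8.12 to 15.4).

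Genes are named if they were called, were among the 10 of smallest p in each direction with at least 10 CPM and no overlap, lay nearest to Hnf4a, led a list, belonged to a fixed set of gut genes, or had the largest fold among called genes. The members, lists and rules were chosen with earlier results of these data known. In list counts and summed levels of lists a gene had to pass the filter on low counts.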

Additional observations from a re-analysis of the deposited data

Results flagged for a closer look

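Among 41 named genes, 82 groups of 4 libraries were screened for a library far from the other 3, and 4 such values were found, about the 1 in 20 that chance gives. Cldn4 was at 323 CPM in control library 4 against 237 to 245 CPM in the others. Prr15 was at 66.6 CPM in control library 2 against 93.7 to 99.2 CPM. Trim31 was at 5.37 CPM in control library 1 against 14.1 to 15.1 CPM. Ankib1 was at 15.3 CPM in double-mutant library 2 against 18.5 to 18.7 CPM.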

How the results depend on the processing

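Against control, the number of called genes was 1, and it was 212 without the filter on low counts, 8 with DESeq2, 0 when the 7 libraries were fitted alone and 0 without the 3 libraries numbered 1. Leaving out 1 library gave 0 to 1. Between the single removals the count of 12 became 404 without the filter, 98 with DESeq2 and 7 without the libraries numbered 1, and 2 to 39 when 1 library was left out. For double-mutant against Hnf4a-removed cells the count of 55 became 733, 278, 30 with voom, 216 without the libraries numbered 1, and 7 to 53. For the difference of the Hnf4a effects the count of 0 became 331, 100, 14 and 0 to 8. Most genes called without the filter had also been tested with it: 186 of 212, 385 of 404, 694 of 733 and 294 of 331. Dropping the filter thus changed more than the set of genes. Over control, the SE of Lyz1 was 0.39 with the filter and 0.13 without it, and that of Serinc3 0.10 and 0.12. With the replicate number as a block the counts were 1, 17, 104 and 0. The numbers were not taken to pair the libraries, since the labels give no pairing. Deviations of control and Hnf4a-removed libraries with the same number correlated at 0.0625, 0.0104 and -0.00038, against at most 0.0141, 0.0247 and 0.0697 for other numbers. Those of Hnf4g-removed and Hnf4a-removed libraries correlated at 0.217, 0.0589 and 0.0943, against at most -0.123, 0.0356 and 0.0854. Over genes with a mean log2 CPM above 4 the latter were 0.357, 0.185 and 0.200, each above the values for other numbers. That is a hint of pairing from the data and not from the labels. Over the same genes, control and Hnf4a-removed libraries gave 0.126, 0.0729 and 0.0492, against at most 0.0569, 0.0600 and 0.107. With the block, Mep1a gained and Ccl6 lost the call between the single removals, and Vil1 gained it for double-mutant against Hnf4a-removed cells (-1.02, adjusted p = 0.0209 in edgeR). The cause of these shifts was not tested. RLE scaling gave the same total counts in all 4 comparisons, with 5 higher and 50 lower in place of 6 and 49 for double-mutant against Hnf4a-removed cells.

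Values near 0 changed sign. Against control, Mep1a was at 0.0080 without the filter, 0.022 with voom and 0.14 with the block, and Ccl9 at -0.081 without the libraries numbered 1. With 1 library left out, log2 fold changes over control spanned -0.18 to 0.14 for Mep1a, -0.27 to 0.094 for Ccl6, -0.40 to 0.14 for Aire, -0.11 to 0.074 for Ccl9 and -0.62 to 0.0073 for Lyz1. Over Hnf4g-removed cells they spanned -0.27 to 0.19 for Hnf4a and -0.22 to 0.079 for Hnf4g, and from Hnf4a-removed to double-mutant cells -0.29 to 0.18 for Hnf4a and -0.15 to 0.040 for Pkig. With 16 to 48 reads of Hnf4a per library, depth limits what can be said of that gene.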
